A study of Triticum aestivum with 24 samples.

Results

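The comparison described here is between leaf sheaths of the wheat *idd5* mutant and of wild-type Cadenza, both treated with water. Its members are the genes that reached 0.5 TPM in 4 or more of the 8 libraries compared, which were 58556 of the 107891 gene models in the table. TPM is the abundance of a gene's transcripts, corrected for their length and scaled so that every library has the same total. A block of 91 neighboring gene models on chromosome 2A, from TraesCS2A02G267900 to TraesCS2A02G277100, is described apart from the rest of the genome. It was first seen in this same comparison, so that its values are given as a description. Of the 91 gene models, 70 passed the filter and 21 did not, which left 58486 tested genes in the rest of the genome.

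The *idd5* line carries 3 mutations induced with ethyl methanesulfonate, one in each *IDD5* homoeologue. Those in *IDD5-A1* and *IDD5-D1* create premature stop codons, and that in *IDD5-B1* changes the donor splice site of the first intron. The 3 mutant lines were intercrossed and the product was backcrossed 3 times to Cadenza, the cultivar that serves here as the wild type with no induced mutation. The seedlings were 7 d old and were sampled 8 h after the water treatment, taking the tissue between the grain and the tip of the coleoptile. There were 4 biological replicates of each genotype. Cadenza was the comparator rather than the null segregant from the same cross, so effects of the *idd5* mutations and of any other mutation carried by the line cannot be told apart. The same table holds water-treated *Rht-D1b* seedlings, a near-isogenic Cadenza line with a dominant semi-dwarfing allele of *RHT-D1*, and all 3 genotypes treated with 100 µM GA3, again with 4 libraries each. These libraries entered the same model and are given beside the main comparison where they bear on it.

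Gibberellin (GA) promotes the elongation of leaves and stems by removing DELLA proteins, which restrain growth. The hormone binds its receptor GID1, and the complex then marks DELLA proteins for degradation. DELLA proteins do not bind DNA themselves but act through partner transcription factors, among them the zinc finger proteins of the INDETERMINATE DOMAIN (IDD) family. In wheat the DELLA protein is encoded by the *RHT1* homoeologues, and *IDD5* encodes an IDD partner that is needed for full elongation of the leaf sheath and stem. Wheat is hexaploid, and a gene is usually present as an A, a B and a D homoeologue whose sequences are close.

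The number of genes that reached 0.5 TPM was from 57314 to 58661 in the *idd5* libraries and from 57946 to 58700 in the Cadenza libraries. Pearson correlations of log2(TPM + 0.5) across genes were from 0.963 to 0.975 between *idd5* libraries, from 0.972 to 0.976 between Cadenza libraries and from 0.953 to 0.966 between the genotypes. TPM keeps no read depth, so that the precision of each value rests on the 4 replicates. The gene models are printed by identifier because the table pairs none of them with a name, and 0 of its identifiers occurred in the reference gene table used here. For the same reason, the tissue could not be checked by marker genes. In whole leaf sheaths, fewer cells of a type and less RNA per cell cannot be told apart.

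Of the *IDD5* homoeologues themselves, only *IDD5-B1* (TraesCS2B02G218900) passed the test for a different transcript level. It had 35.7, 34.9, 36.8 and 36.2 TPM in the 4 *idd5* libraries, against 8.58, 9.15, 9.25 and 10.8 TPM in the 4 Cadenza libraries. Every *idd5* library was far above every Cadenza library, and this was the smallest adjusted p-value of all genes tested (log2 fold change 1.88, standard error 0.07, adjusted p = 3.22e-13 by limma and the Benjamini-Hochberg method). TPM does not separate transcripts that keep the first intron from correctly spliced ones, so a higher TPM is no measure of functional transcript. *IDD5-A1* (TraesCS2A02G188400) had 9.28 ± 0.55 TPM in *idd5* and 9.06 ± 0.65 TPM in Cadenza (SD, n = 4 each), with overlapping libraries (adjusted p = 0.854 in limma's test, p = 0.6 in an exact two-sided permutation test). *IDD5-D1* (TraesCS2D02G199300) had 10.7 ± 0.51 TPM in *idd5* and 11.6 ± 0.66 TPM in Cadenza (SD, n = 4 each; adjusted p = 0.424 in limma's test, p = 0.114 in the exact permutation test). The stop codon mutations were thus not accompanied by a difference in transcript level that passed the test.

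The *RHT1* homoeologues, which encode the DELLA protein with which IDD5 interacts, were each below Cadenza in all 4 *idd5* libraries. *RHT-A1* (TraesCS4A02G271000) had 65.3, 67.4, 67.2 and 62.4 TPM in *idd5*, against 89, 80.8, 83.8 and 82.7 TPM in Cadenza. Its log2 fold change of -0.36 (standard error 0.07) passed the threshold of 0.01 (adjusted p = 0.0028 in limma's test). It did not pass with median-ratio scaling of the libraries (adjusted p = 0.0139), without Cadenza replicate 1 (0.0129) or without *idd5* replicate 4 (0.0122). *RHT-B1* (TraesCS4B02G043100) had 69.4, 68.8, 62.5 and 64.1 TPM in *idd5*, against 84.4, 78.3, 79.6 and 78.5 TPM in Cadenza (log2 fold change -0.28, adjusted p = 0.0208 in limma's test). *RHT-D1* (TraesCS4D02G040400) had 53.2, 52.7, 50.8 and 57.5 TPM in *idd5*, against 70.6, 61.5, 63.7 and 66.9 TPM in Cadenza (log2 fold change -0.29, adjusted p = 0.0104 in limma's test). *RHT-B1* and *RHT-D1* thus did not pass the threshold. All *idd5* libraries were below all Cadenza libraries for 10.4% of all genes tested, so that such a separation was common. With median-ratio scaling the log2 fold changes were -0.30, -0.22 and -0.23 for the A, B and D homoeologues. How the quantification divided reads between the close homoeologues is not known from TPM.

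**Figure D1:**
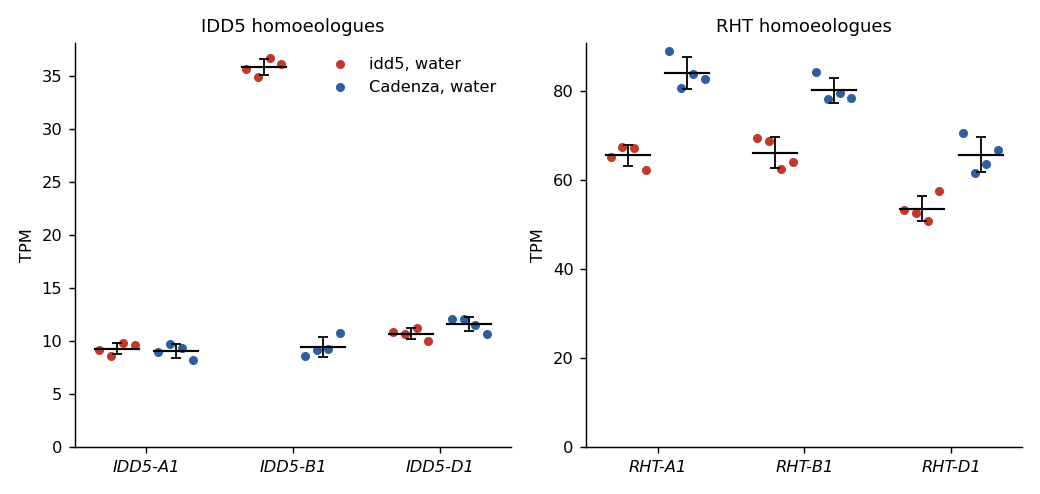
TPM of the *IDD5* (left) and *RHT1* (right) homoeologues in each water-treated library, with *idd5* in red and Cadenza in blue, and the mean and SD of 4 libraries as black lines. *IDD5-B1* stands near 36 TPM in *idd5* and near 9 TPM in Cadenza, while each *RHT1* homoeologue has its 4 *idd5* values below its 4 Cadenza values, of which the difference of *RHT-A1* alone passed the test.

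Over all genes tested, 3041 (5.19%) were differentially expressed genes (DEGs), for which limma gave an adjusted p below 0.01. Of these, 1787 (3.05%) were higher and 1254 (2.14%) were lower in *idd5*, so that 58.8% of the DEGs were higher. At an adjusted p under 0.05 the majority turned, with 2900 genes higher and 3114 lower. With median-ratio scaling the number was 3086 and 72.3% of them were higher, with 2641 genes called in the same direction under both. The median log2 fold change of all genes tested was -0.07 as deposited and -0.02 with this scaling. A further 2973 genes had an adjusted p-value between 0.01 and 0.05, and 14098 genes (24.1%) had an unadjusted p-value under 0.05. The libraries of the genotypes did not overlap for 17.5% of the genes tested.

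Outside the chromosome 2A interval there were 2978 DEGs (5.09% of the genes tested there), 1787 higher (3.06%) and 1191 lower (2.04%). Most differences were small. The median log2 fold change was 0.55 among the higher and -0.52 among the lower DEGs, and 87.3% and 83.6% of them changed by less than 2-fold. Only 51 higher and 41 lower DEGs changed by more than 4-fold. These fold changes are on the scale of log2(TPM + 0.5), which understates the change of low genes. All *idd5* libraries were above all Cadenza libraries for 1770 of the higher DEGs, beside 7.09% of all genes tested, and below them for 1169 of the lower DEGs, beside 10.4% of all genes tested.

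The higher DEGs took 14.0%, 15.4%, 13.5% and 14.5% of all TPM in the 4 *idd5* libraries, against 9.53%, 9.34%, 9.07% and 9.44% in the Cadenza libraries. The lower DEGs took 4.99%, 5.03%, 5.09% and 5.49% in *idd5*, against 7.76%, 7.74%, 7.39% and 7.47% in Cadenza. These genes were chosen on the same libraries, which widens both gaps. In the water-treated *Rht-D1b* libraries, which did not choose them, the higher DEGs took from 12.9% to 14.3% and the lower DEGs from 5.51% to 5.74% of all TPM. The comparison of *Rht-D1b* with Cadenza uses the same 4 Cadenza libraries and called 4.29% of the genes tested, so the values are given side by side only.

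The share of genes called was larger at higher transcript levels. It was 1.04% of the genes with a mean under 1 TPM, 3.32% of those from 5 to 10 TPM, 10.1% of those from 10 to 50 TPM and 22.7% of those at 50 TPM or above. Higher DEGs outnumbered lower ones in each class except that from 1 to 2 TPM, where 44.3% of the calls were higher. A mean of 10 TPM or more over the 8 libraries was reached by 75.7% of the higher and 67.1% of the lower DEGs outside the interval, but by 29.3% of all genes tested. The higher DEGs had a median of 27.6 TPM in *idd5* and 18.3 TPM in Cadenza, and the lower DEGs had a median of 14.6 TPM in *idd5* and 22.0 TPM in Cadenza. Among the 20 genes outside the interval with the largest difference in mean TPM, 12 were higher DEGs, 4 were lower DEGs and 4 were not called. The 12 higher ones had Cadenza means from 180 to 1826 TPM, were higher in *idd5* by 1.63-fold to 3.4-fold, and lay on the group 2 (3 genes), group 4 (3 genes) and group 5 (6 genes) chromosomes, whose members are the A, B and D copies of one ancestral chromosome.

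**Figure D2:**
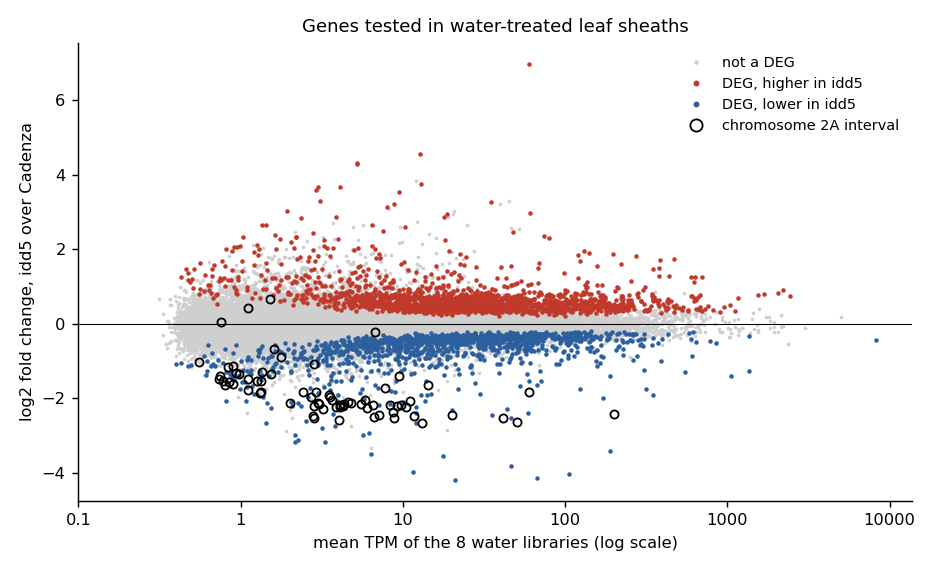
Log2 fold change of *idd5* over Cadenza against the mean TPM of the 8 water libraries (log scale), one point per gene tested. DEGs higher (red, 1787) and lower (blue) in *idd5* lie on both sides of 0, and the open circles are the 70 tested genes of the chromosome 2A interval, most of them near a log2 fold change of -2.

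The largest differences outside the interval included genes that were close to silent in one genotype. TraesCS1B02G468400 on chromosome 1B had 125, 117, 99.1 and 137 TPM in *idd5*, against 2.03, 0.46, 0.14 and 0 TPM in Cadenza, the largest log2 fold change among the named genes (6.99, standard error 0.37, adjusted p = 4.74e-11 in limma's test). In *Rht-D1b* it had 0.09 TPM in replicate 1 and was listed at 0 in the other libraries. TraesCS3B02G262700 on chromosome 3B had 12.6, 31.9, 13.8 and 38.2 TPM in *idd5*, against 5.37 TPM in Cadenza replicate 4 and 0 in the other Cadenza libraries (log2 fold change 4.57, standard error 0.89, adjusted p = 0.00149). It was uneven in *Rht-D1b* as well, with 9.89 and 8.44 TPM in replicates 1 and 4 and 0 in the others.

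TraesCS5B02G009000, near the start of chromosome 5B, had 1.2, 0.41, 2.69 and 4.03 TPM in *idd5*, against 29.2, 43.3, 38.2 and 48.6 TPM in Cadenza (log2 fold change -4.19, standard error 0.35, adjusted p = 5.31e-08 in limma's test). TraesCS7A02G101900 on chromosome 7A had 5.26, 5.01, 7.71 and 9.73 TPM in *idd5*, against 141, 136, 111 and 120 TPM in Cadenza (log2 fold change -4.14, standard error 0.21, adjusted p = 1.6e-11). Both were low in *Rht-D1b* too, at 0.09 ± 0.13 TPM and 4.42 ± 0.75 TPM (SD, n = 4 each). TraesCS2B02G159600 on chromosome 2B had the smallest adjusted p-value of the lower DEGs outside the interval (adjusted p = 6.53e-13 in limma's test, log2 fold change -2.40, standard error 0.10). It had 3.74, 2.72, 4.19 and 3.36 TPM in *idd5*, against 18.8, 18.4, 21.8 and 23.4 TPM in Cadenza. In *Rht-D1b* this gene stood at 17.1 ± 0.92 TPM (SD, n = 4), near the level of Cadenza. The first 4 of these genes were chosen for libraries that do not overlap, and all 5 were chosen on the same 8 libraries, so their separation is a description.

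Some genes reached 0.5 TPM in every library of one genotype and in none of the other. Of the genes tested, 72 did so in *idd5* only and 102 in Cadenza only, with 9 of these 102 in the chromosome 2A interval. The filter admits such genes through the group in which they are high, so these counts are a description. Of the 72 genes, 44 were DEGs, and the most on any chromosome were 11 on chromosome 5B. Among the 44, 19 were under 0.5 TPM in all 4 *Rht-D1b* libraries and 11 reached it in all of them. Outside the interval, 32 of the Cadenza-only genes were DEGs, of which 16 were under 0.5 TPM in all *Rht-D1b* libraries and 7 reached it in all of them.

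The DEGs outside the interval were spread over all chromosomes. The share of tested genes called was from 4.47% on chromosome 7B to 6.17% on chromosome 5B. It was 5.04% in the A, 5.23% in the B and 4.97% in the D subgenome. Higher DEGs were from 48.0% of the calls on chromosome 1B to 69.0% on chromosome 7B. Among the 776 tested genes without an assigned chromosome the share called was 5.93%, with 39.1% of the calls higher.

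Within this spread, some DEGs of the same direction lay side by side in the order of the identifiers. There were 7 runs of at least 4 such neighbors, and these were singled out after their values had been seen. The longest were 7 genes on chromosome 2A (TraesCS2A02G066700 to TraesCS2A02G067300), 6 on chromosome 2B (TraesCS2B02G078900 to TraesCS2B02G079500) and 6 on chromosome 2D (TraesCS2D02G065100 to TraesCS2D02G065600), one run on each chromosome of group 2. All 19 genes were higher in *idd5*, with log2 fold changes from 1.28 to 3.28 on 2A, from 1.27 to 1.96 on 2B and from 1.5 to 1.89 on 2D. The summed TPM of the 2A run was 2176, 3131, 1973 and 2525 in *idd5*, against 740, 716, 704 and 843 in Cadenza. That of the 2B run was 2494, 3407, 2339 and 2861 in *idd5*, against 1030, 980, 960 and 1150 in Cadenza. That of the 2D run was 1469, 2064, 1367 and 1763 in *idd5*, against 511, 478, 500 and 570 in Cadenza. In each of these runs *idd5* replicate 2 was the highest library and replicate 3 the lowest of the *idd5* libraries, and none overlapped Cadenza. Whether genes of these runs are close in sequence is not known here, and TPM does not show how reads were divided between close copies. The 19 genes need therefore not be separate measurements. The sums in *Rht-D1b* were 2188 ± 234 TPM on 2A, 2434 ± 263 TPM on 2B and 1437 ± 154 TPM on 2D (SD, n = 4 each). The nearest tested genes on either side of each run did not pass the test (adjusted p from 0.164 to 0.948 in limma's test), so the runs ended sharply.

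Among the remaining runs, that of 4 genes on chromosome 4B (TraesCS4B02G363700 to TraesCS4B02G364000) was lower in *idd5*, at a summed 273 ± 43.4 TPM against 444 ± 27.4 TPM in Cadenza. Its log2 fold changes were from -1.53 to -0.60. The smallest change was that of TraesCS4B02G363700, which held most of the sum (361 TPM in Cadenza). A run of 4 genes at the start of chromosome 5B (TraesCS5B02G006500 to TraesCS5B02G007200) had 492 ± 90.0 TPM in *idd5* and 877 ± 52.7 TPM in Cadenza. A run of 4 genes on chromosome 5D (TraesCS5D02G014100 to TraesCS5D02G014400) had 73.1 ± 15.6 TPM in *idd5* and 124 ± 10.8 TPM in Cadenza (SD, n = 4 each). The corresponding means of the sums in *Rht-D1b* were 291, 607 and 62.9 TPM, below Cadenza in each run. The first gene of the 5B run, TraesCS5B02G006500, did not share this, at 304 TPM in *Rht-D1b* and 255 TPM in Cadenza (log2 fold change 0.26, adjusted p = 0.243 in limma's test). The run at the start of 5B was followed by a second patch of low genes. Of the 8 genes tested from TraesCS5B02G009000 to TraesCS5B02G010600, 7 were DEGs, 6 of them lower and 1 higher in *idd5*, beside 2.14% lower and 3.05% higher among all genes tested. This patch was singled out after its values had been seen. It was not particular to *idd5*. In *Rht-D1b*, set against the same Cadenza libraries, the 6 lower genes had log2 fold changes from -6.10 to -2.19. The higher one had 1.63 there, and all 7 had an adjusted p under 0.01 in limma's test.

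A stretch of the distal part of chromosome 5B, likewise singled out on its values, held genes that were near 0 in Cadenza and present in *idd5*. From TraesCS5B02G448400 to TraesCS5B02G455400, 36 genes were tested and 8 were DEGs, all higher in *idd5*, beside 3.05% higher among all genes tested, and 5 of them were under 0.5 TPM in every Cadenza library and above it in every *idd5* library. TraesCS5B02G455200 had 14.7, 14.2, 3.59 and 9.32 TPM in *idd5* and was listed at 0 in all 4 Cadenza and all 4 *Rht-D1b* libraries. Its neighbor TraesCS5B02G455100 had 11.4, 15.7, 7.42 and 7.18 TPM in *idd5*, against 0.09, 0.02, 0 and 0 TPM in Cadenza. The remaining genes of the stretch were not DEGs, such as TraesCS5B02G448500 with 359 ± 33.5 TPM in *idd5* and 415 ± 9.46 TPM in Cadenza (SD, n = 4 each). The last 4 genes of the stretch formed a run whose summed TPM was 34.6, 40.3, 19.3 and 23.3 in *idd5*, against 3.2, 4.2, 5.0 and 4.2 in Cadenza. In *Rht-D1b* this sum was 4.8 ± 0.78 TPM (SD, n = 4). Nearly all of the sum in Cadenza and *Rht-D1b* came from TraesCS5B02G454800, with means of 4.1 and 4.8 TPM. That gene rose only to 7.7 TPM in *idd5* (log2 fold change 0.84), whereas the rest of the run was near 0 outside *idd5*.

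**Figure D3:**
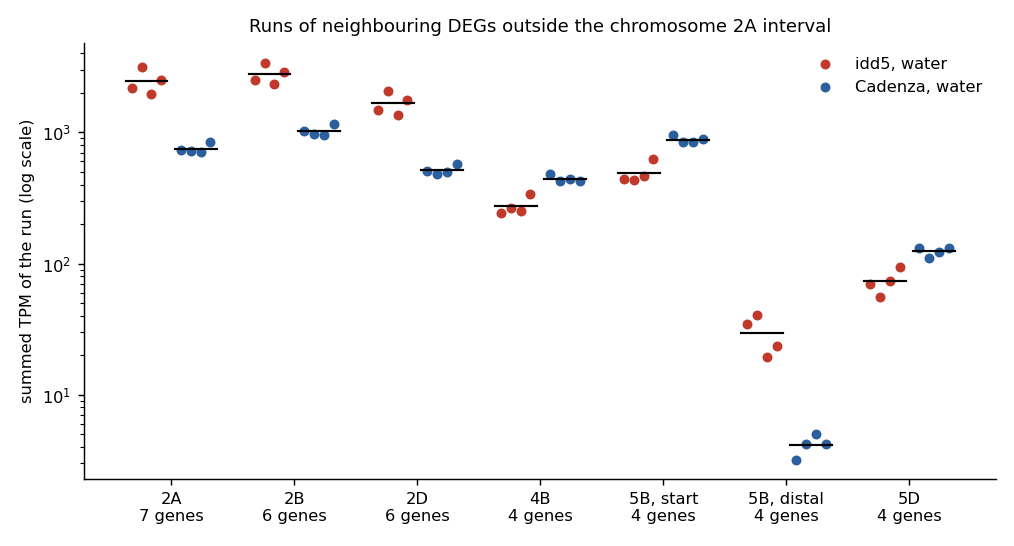
Summed TPM (log scale) of the 7 runs of at least 4 neighboring DEGs of 1 direction outside the chromosome 2A interval, one point per water-treated library, with *idd5* left of Cadenza and the mean of 4 libraries as a line. The runs on 2A, 2B and 2D are higher in *idd5*, those on 4B, the start of 5B and 5D are lower, and the distal 5B run has from 3.2 to 5.0 TPM in Cadenza.

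The chromosome 2A interval was apart from all of this in the size and the uniformity of its change. Of its 70 tested genes, 63 (90.0%) were DEGs, all of them lower in *idd5* by more than 2-fold and 34 by more than 4-fold, beside a background of 2.14% lower DEGs over all genes tested. The interval thus held 45.3% of the 75 genes of the genome that were DEGs with a more than 4-fold lower level in *idd5*. Its median log2 fold change was -2.0, whereas that of all genes tested was -0.07. Summed over the 70 genes, the interval had 203, 251, 227 and 184 TPM in the *idd5* libraries, against 1050, 1030, 1100 and 1090 TPM in the Cadenza libraries. In the 4 *Rht-D1b* libraries the sum was from 963 to 1020 TPM. The interval was chosen on this comparison, so its counts carry no test.

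The edges were abrupt on both sides. The first gene, TraesCS2A02G267900, had 0.64, 0.95, 0.96 and 0.71 TPM in *idd5*, against 5.45, 5.28, 4.87 and 5.60 TPM in Cadenza (log2 fold change -2.15). The nearest tested gene before it, TraesCS2A02G267600, had 0.51 ± 0.20 TPM in *idd5* and 0.76 ± 0.34 TPM in Cadenza (SD, n = 4 each), with overlapping libraries and a log2 fold change of -0.29. The last gene, TraesCS2A02G277100, had 0.46, 0.98, 0.85 and 0.77 TPM in *idd5*, against 5.18, 5.63, 4.74 and 7.26 TPM in Cadenza (log2 fold change -2.30). The nearest tested gene after it, TraesCS2A02G277500, was also lower in *idd5* but far less so, at 1.14, 1.35, 1.18 and 1.19 TPM against 1.61, 2, 2.36 and 2.24 TPM in Cadenza (log2 fold change -0.57, adjusted p = 0.002 in limma's test). It did not pass with only the 8 libraries in the fit (adjusted p = 0.0308) or without Cadenza replicate 3 (0.0109). Of 100 tested genes, 50 on each side, 6 were DEGs, 2 higher and 4 lower, which is near the 5.09% called outside the interval, with a median log2 fold change of -0.04 over the 100.

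**Figure D4:**
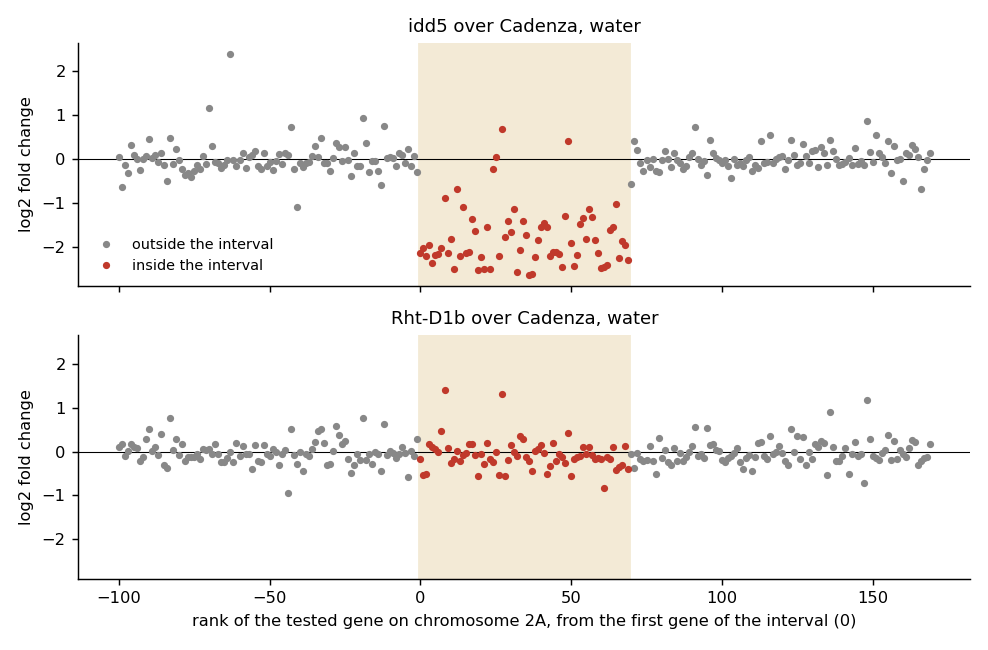
Log2 fold change in water of *idd5* over Cadenza (top) and of *Rht-D1b* over Cadenza (bottom) for tested genes of chromosome 2A in the order of their identifiers, with rank 0 at the first gene of the interval. The shaded 70 genes of the interval drop to a median of -2.0 in the upper panel and lie at a median of -0.10 in the lower one, which uses the same Cadenza libraries.

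For most genes of the interval a low level remained in *idd5*. The 40 interval genes that averaged 5 TPM or more in Cadenza were expressed at a median of 16.4%, 21.3%, 18.0% and 15.1% of the Cadenza mean in *idd5* replicates 1 to 4. The *Rht-D1b* libraries were from 87.9% to 94.8% and the Cadenza libraries themselves from 92.7% to 104%. Over the 47 flanking genes at the same minimum, the *idd5* medians were from 91.6% to 98.4%. By gene, the mean level in *idd5* had quartiles of 15.7% and 19.6% around a median of 17.6%, and 35 of the 40 genes lay between 10% and 30%. The lowest was TraesCS2A02G270500 at 9.79% and the highest TraesCS2A02G271000 at 84.8%. Replicate 2 was the highest *idd5* library for 21 of the 40 genes, while the lowest was replicate 4 for 15 genes and replicate 1 for 14. Whether each replicate was a single seedling or a pool of seedlings is not given in the sources used here, so a level shared by all cells and a mixture of seedlings with different levels cannot be told apart. None of the 40 genes was listed at 0 in any of the 4 libraries of water-treated *idd5*.

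**Figure D5:**
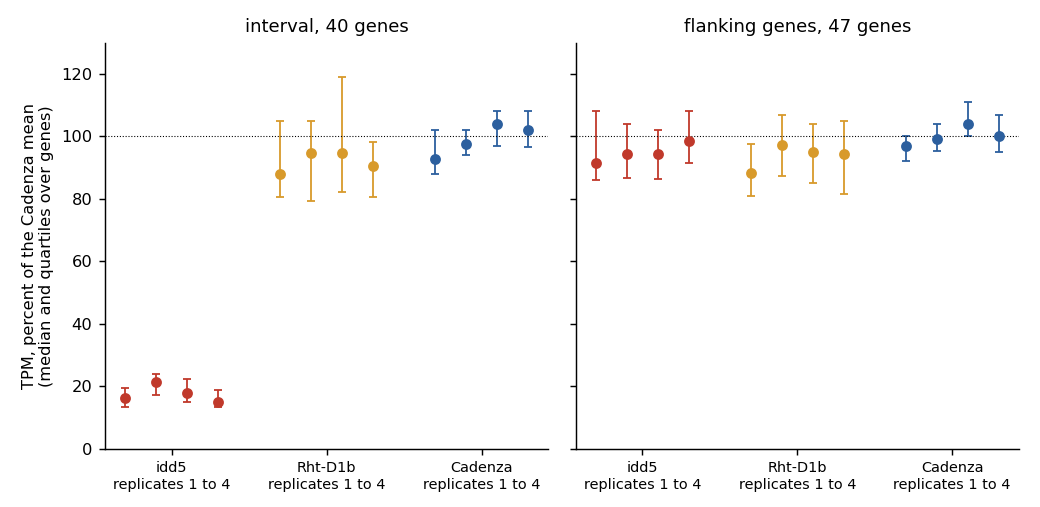
TPM as a percentage of the Cadenza mean, as the median over genes with the quartiles as bars, for each water-treated library, in the 40 interval genes that averaged 5 TPM or more in Cadenza (left) and in 47 flanking genes (right). In the interval the 4 *idd5* libraries lie from 15.1% to 21.3%, while the libraries of *Rht-D1b* and Cadenza lie from 87.9% to 104%, around the Cadenza mean (dotted line).

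The most abundant gene of the interval was TraesCS2A02G276100, with 60.0, 83.7, 60.5 and 50.4 TPM in *idd5*, against 346, 332, 349 and 328 TPM in Cadenza. It was not a DEG in the model of all 24 libraries (log2 fold change -2.43, standard error 0.78, adjusted p = 0.0503 in limma's test), although its mean level in *idd5*, 18.8% of that in Cadenza, was near the median of the interval. The spread in that model is shared with GA3-treated *idd5*, and with GA3 replicate 2 of *idd5* left out of the fit its adjusted p was 2.63e-12. TraesCS2A02G273100 had 26.9, 27.5, 28.1 and 21.4 TPM in *idd5*, against 97.0, 81.1, 95.9 and 101 TPM in Cadenza (log2 fold change -1.84). TraesCS2A02G272800 had 11.7, 15.1, 14.0 and 14.1 TPM in *idd5*, against 85.3, 84.8, 89.9 and 88.8 TPM in Cadenza (log2 fold change -2.63). Its adjusted p of 0.00192 was 0.0407 with a pseudocount of 0.1. In *Rht-D1b* these genes had 310 ± 32.2, 97.6 ± 14.0 and 64.7 ± 6.92 TPM (SD, n = 4 each).

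The other 6 tested genes of the interval that were not DEGs were mostly low. Of all 7, 5 had a Cadenza mean under 5 TPM, and for 4 the libraries overlapped. TraesCS2A02G271000, at 5.06, 7.31, 7.25 and 5.29 TPM in *idd5* against 6.22, 8.55, 6.68 and 7.92 TPM in Cadenza, kept most of its level. TraesCS2A02G271400 was the only one above Cadenza in all *idd5* libraries, at 2.84, 2.09, 1.40 and 1.65 TPM against 0.81, 0.96, 1.11 and 1.24 TPM (adjusted p = 0.323 in limma's test). One DEG of the interval was uneven within *idd5*. TraesCS2A02G274700 had 0.38, 0.28, 5.97 and 0.57 TPM in *idd5*, against 3.58, 5.64, 6.29 and 5.25 TPM in Cadenza, so that replicate 3 alone was within the range of Cadenza. Of the 21 gene models that did not pass the filter, 12 were listed at 0 in all 8 libraries, and the highest value of the others in any library was 4.19 TPM.

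The same difference between the genotypes was measured in GA3-treated seedlings, whose 8 libraries did not choose these genes and share only the filter and the estimate of the spread with the comparison in water. Of the 2978 DEGs outside the interval, 2967 (99.6%) had the same direction in GA3, and 2456 (82.5%) were also DEGs there, beside a background of 10.3% of all genes tested (4.95% higher and 5.32% lower). The direction was also the same for 70.9% of the genes that were not DEGs in water. The 1787 higher DEGs had a median log2 fold change of 0.61 in GA3 and 0.55 in water, and the 1191 lower DEGs had -0.53 in GA3 and -0.52 in water. Of the 11 genes with the opposite direction, 8 were higher and 3 lower in water, and 0 of them were DEGs in GA3. The *RHT1* homoeologues were all lower in GA3, with log2 fold changes of -0.57 (A homoeologue), -0.37 (B) and -0.69 (D; adjusted p = 1.05e-05, 0.0012 and 5.39e-07 in limma's test). *IDD5-B1* was higher in GA3 with a log2 fold change of 1.83 (adjusted p = 3.48e-13), at 35.5, 35.2, 30.5 and 35.6 TPM in *idd5* against 8.97, 9.13, 9.36 and 9.52 TPM in Cadenza. The genes named for their large differences kept their direction in GA3 under the rule that chose them, with log2 fold changes of 5.75 for TraesCS1B02G468400, 5.33 for TraesCS3B02G262700, -3.00 for TraesCS5B02G009000 and -4.04 for TraesCS7A02G101900. All 7 runs also held DEGs in GA3, which were 7, 6 and 6 genes in the runs on 2A, 2B and 2D, 4 genes in those on 4B and in each of the pair on 5B, and 3 of the 4 genes on 5D.

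The difference of the *idd5* effect between GA3 and water was then tested for each gene. For 0 of the 58556 genes did it pass the threshold (smallest adjusted p = 0.0948 in limma's test), and 3378 genes (5.77%) had an unadjusted p-value under 0.05. In the interval, 64 of the 70 tested genes were DEGs in GA3 and the median log2 fold change was -2.48, against -2.0 in water. Its end genes and its 3 most abundant genes had differences from -2.38 to -0.56. Their unadjusted p-values were from 0.00071 to 0.0428 and their adjusted p-values from 0.363 to 0.848 in limma's test. Most other genes of the interval also had a difference below 0. Among the 40 genes that averaged 5 TPM or more in Cadenza, TraesCS2A02G268100 was the exception, with a difference of 0.48 (unadjusted p = 0.268 in limma's test). The further genes with a difference above 0 were lower than this in Cadenza. The GA3-treated *idd5* libraries were both lower and less alike in the interval than those in water. The median level of the 40 genes relative to water-treated Cadenza was 10.5%, 0%, 11.2% and 9.5% in GA3 replicates 1 to 4. On the same scale it was 16.4%, 21.3%, 18.0% and 15.1% in water, so that every GA3-treated library was below every water-treated one. The reason for this shift was not tested. In GA3 replicate 2, 24 of the 40 genes were listed at 0, whereas 0 or 1 were in the other 3 libraries. With this library left out of the fit, 3003 genes were DEGs in water, 63 of them in the interval, and 99.7% of those outside it had the same direction in GA3. The difference between GA3 and water was not tested again without this library. For the interval the test therefore does not decide whether the effect depends on the treatment.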

How the data were processed

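Paired-end reads had been trimmed by the authors (Trimmomatic 0.39) and pseudoaligned with kallisto, and the TPM of 24 libraries were deposited as a single table. Their own contrasts, made on counts, were not used here. The paper's methods and the series text name different releases of the gene models, so that no coordinates are given. TPM keeps no depth. No sequence is printed, because none could be matched to the identifiers.

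From the deposited TPM, log2(TPM + 0.5) was fitted in R 4.3.3 by limma 3.58.1, giving each of 6 groups a mean over all 24 libraries. Variances were moderated with an intensity trend, and p-values were adjusted by the Benjamini-Hochberg method over the 58556 genes that reached 0.5 TPM in 4 or more of the 8 libraries. DEGs had an adjusted p under 0.01. Fold changes on this scale understate the change of low genes. Single genes were also compared by exact two-sided permutation tests. Tables were made in Python 3.11.15, and the fit was tested on simulated data.

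Genes were ordered by identifier. The named genes are the *IDD5* and *RHT1* homoeologues paired with identifiers in the paper, the first 2 higher and first 2 lower DEGs outside the interval by log2 fold change (no overlap, the same sign in GA3, at least 5 TPM in the higher group), the gene of smallest adjusted p in each direction, the ends and outer neighbors of the interval, and its 3 most abundant genes. Other genes and the runs were named after their values were seen. The members, the interval and these rules were chosen with earlier results of these data known. Of the genes tested, 153 had the same values as another in all 24 libraries, 14 of them DEGs. Replicate numbers did not pair the samples.

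The alternatives were pseudocounts of 0.1 and 1, no filter, a filter at 2 TPM or over all 24 libraries, median-ratio scaling, only the 8 libraries compared, no trend, array weights, an adjusted p under 0.05, the replicate number as a block, each library left out in turn, and, chosen after seeing the data, the fit without 1 GA3 library.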

Additional observations from a re-analysis of the deposited data

Results flagged for a closer look

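Dixon's criterion was applied to 52 groups of 4 libraries, from the named genes, the uncalled genes of the interval, TraesCS2A02G274700 and the median level of the interval. Of these, 3 held a library far from the other 3, and chance alone gives about 1 in 20 groups. TraesCS2A02G274700 was included after its values had been seen, so the count of 3 is a description and is not weighed against that rate. TraesCS2A02G273100, in the chromosome 2A interval, had 21.41 TPM in *idd5* replicate 4 and from 26.9 to 28.1 TPM in the other *idd5* libraries. TraesCS2A02G274700, in the same interval, had 5.97 TPM in *idd5* replicate 3 and from 0.28 to 0.57 TPM in the others. TraesCS3B02G262700, outside it, had 5.37 TPM in Cadenza replicate 4 and was listed at 0 in the other Cadenza libraries.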

How the results depend on the processing

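An adjusted p under 0.05 gave 6014 DEGs, 2900 higher and 3114 lower, of which 5951 (2900 higher and 3051 lower) were outside the chromosome 2A interval and 5841 of these had the same direction in GA3. Leaving out single libraries gave between 1965 and 2496 DEGs, 1181 to 1480 higher and 784 to 1016 lower. Outside the interval these were from 1905 to 2434, 1181 to 1480 higher and 724 to 954 lower, with 1901 to 2425 in the same direction in GA3 (99.3% to 99.8%). The lowest of each of these counts came without *idd5* replicate 2, and all lower DEGs numbered 790 without Cadenza replicate 3. Outside the interval, the lower DEGs numbered 731 without Cadenza replicate 3, 778 without Cadenza replicate 4 and 778 without *idd5* replicate 1, against 1191 with all libraries. The interval held from 59 to 62 DEGs in these fits and its mean level in *idd5*, 17.7% with all libraries, was from 16.5% to 18.6%. The other settings gave from 2342 DEGs (only the 8 libraries compared) to 3960 (array weights). With the replicate number as a block the count was 3152, and *RHT-D1* passed (adjusted p = 0.00517 in limma's test). The numbers share no culture in the labels, and the correlations of same-numbered libraries were from -0.026 to 0.041.

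The log2 fold change of *IDD5-A1*, 0.03 with all libraries and not called, was from -0.012 (without Cadenza replicate 4) to 0.069 with single libraries left out. *RHT-D1* also passed with a filter at 2 TPM, array weights and the fit without *idd5* GA3 replicate 2, and *RHT-B1* with array weights. TraesCS2A02G276100 passed with only the 8 libraries compared. No other named gene crossed the threshold beyond those given with its values. High-confidence models alone are not a separate setting, since all identifiers of the table are of that kind. The precision rests on 4 libraries a group, since the depth is unknown.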
